A study of Rattus norvegicus with 12 samples.

Results

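Cartilage of a growing bone passes through a fixed order of stages, from proliferating to hypertrophic chondrocytes, and 9 genes that set or mark these stages were followed in cultured fetal rat metatarsals. They were chosen by symbol: Col10a1, Mmp13 and Panx3, made by hypertrophic cells, the transcription factors Runx2, Runx3 and Mef2c, which drive hypertrophy, and Sox9, Sox5 and Sox6, the Sox trio of the chondrocyte lineage. All 9 were among the 30045 gene symbols in the count files, and all 9 passed the filter on low counts (at least 60 counts in at least 2 libraries) that left 12602 genes for testing.

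The 3 middle metatarsals of the hind paw were dissected from Sprague Dawley fetuses at embryonic day 19 and cultured for 72 h in serum-free medium with bovine serum albumin, β-glycerophosphate and ascorbic acid. Control bones received the ethanol vehicle. The other conditions were dexamethasone, a synthetic glucocorticoid, at 1 µM, LiCl at 10 mM with the same ethanol, and dexamethasone 1 µM together with LiCl 10 mM. Each of the 4 conditions had 3 libraries, numbered 1 to 3, each from a pool of about 20 bones, so n = 3 pools throughout and errors describe the spread between pools. The dissected bones held cartilage with its perichondrium, and gene levels were measured over the whole piece. In such bulk RNA, fewer cells of a type and less RNA per cell cannot be told apart.

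Hypertrophic chondrocytes enlarge, replace collagen II by collagen X and prepare their matrix for mineral and for invading vessels. Sox9, with its partners Sox5 and Sox6, switches on collagen II and aggrecan and holds cells in the earlier stages, while Runx2, Runx3 and Mef2c move them forward. In mice, loss of Runx2 together with Runx3 leaves cartilage almost without hypertrophic cells. Glucocorticoids slow the growth plate. Lithium inhibits glycogen synthase kinase 3, which otherwise marks β-catenin of the Wnt pathway for degradation, and the question posed by the design was how each drug, and both together, changed gene expression in growing bone.

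Promoter windows of 250 bases before to 50 after an annotated transcription start were found for 5 of the 9 genes in the RefSeq table (GRCr8). The windows of Col10a1, Mmp13 and Runx3 are printed because these genes changed in at least 1 comparison below. Capitals mark matches to short motifs, searched on both strands and not overlapping each other here. Runt factors read the letters TGTGGT, the RUNX motif, which appears reversed and complemented where it lies on the minus strand. Sox factors read ACAAAG, the SOX motif. The AP-1 motif of Fos and Jun proteins was searched as TGANTCA, and the TATA box of the basal machinery as TATAAA. The Col10a1 window lies at chr20:39737286-39737585 on the plus strand, the Mmp13 window at chr8:12782579-12782878 on the plus strand and the first of the Runx3 windows at chr5:152644020-152644319 on the plus strand.
Col10a1: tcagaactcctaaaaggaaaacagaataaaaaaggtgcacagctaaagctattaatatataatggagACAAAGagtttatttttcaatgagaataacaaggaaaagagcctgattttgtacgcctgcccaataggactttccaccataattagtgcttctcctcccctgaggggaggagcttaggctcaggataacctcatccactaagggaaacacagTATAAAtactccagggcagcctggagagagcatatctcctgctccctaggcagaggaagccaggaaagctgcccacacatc
Mmp13: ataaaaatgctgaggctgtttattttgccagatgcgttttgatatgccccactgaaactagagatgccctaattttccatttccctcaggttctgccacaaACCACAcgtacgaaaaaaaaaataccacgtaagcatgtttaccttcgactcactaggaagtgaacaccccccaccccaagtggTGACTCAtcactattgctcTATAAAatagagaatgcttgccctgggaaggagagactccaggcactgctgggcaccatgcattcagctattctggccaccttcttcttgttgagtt
Runx3: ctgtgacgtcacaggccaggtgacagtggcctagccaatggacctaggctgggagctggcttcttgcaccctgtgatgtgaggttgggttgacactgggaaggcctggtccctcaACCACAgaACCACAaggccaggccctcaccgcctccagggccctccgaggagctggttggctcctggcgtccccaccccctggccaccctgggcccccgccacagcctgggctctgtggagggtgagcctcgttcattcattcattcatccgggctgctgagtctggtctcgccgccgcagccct

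The Col10a1 window held a SOX match 183 bases before the start and a TATA match 31 bases before it. The Mmp13 window held a RUNX match, an AP-1 match and a TATA match, at 149, 66 and 47 bases before the start. The first Runx3 window held RUNX matches on the minus strand at 135 and 127 bases before the start. Of the 33469 rat windows of the same length, 17.3% held a RUNX match, 18.8% a SOX match, 7.33% an AP-1 match and 14.2% a TATA match. A match is a description of the letters, not a binding site. None of the windows of these genes held a TCF/LEF match (ATCAAAG), the letters that factors of the Wnt pathway read, a MEF2 match or a match to the glucocorticoid response element. These 3 motifs were in 3.63%, 3.29% and 0.14% of all windows.

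Total counts per library ran from 9055581 to 21953446, and each of the 9 genes had 189 or more counts in every library. Levels are given in CPM, read counts scaled to library size by TMM, which corrects for differences in depth and composition between libraries. They were not divided by gene length, so levels are compared between conditions and not between genes. Control replicate 2 and dexamethasone replicate 2 stood farthest from the other libraries of their condition, at 0.35 and 0.30 (root mean square difference on the log2 scale over all genes tested, against 0.20 to 0.29 for the other 10). Leaving out either changed some calls and estimates, which are given with the gene. A gene was called at an adjusted p under 0.05 in edgeR's two-sided quasi-likelihood test, adjusted by Benjamini-Hochberg over all 12602 genes.

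The plot of the levels in each pool shows different patterns for the 3 hypertrophic cell products. LiCl alone lowered Col10a1, with no call when it was added to dexamethasone, LiCl lowered Mmp13 with and without dexamethasone, and dexamethasone lowered Panx3 with and without LiCl. All 3 Panx3 pools with LiCl alone also lay below control, at a difference that was not called. Runx3 rose with both drugs together. No change of Runx2, Mef2c, Sox9, Sox5 or Sox6 was called in any of the 7 comparisons by the test just described, and some were under the alternatives given with each gene.

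**Figure D1:**
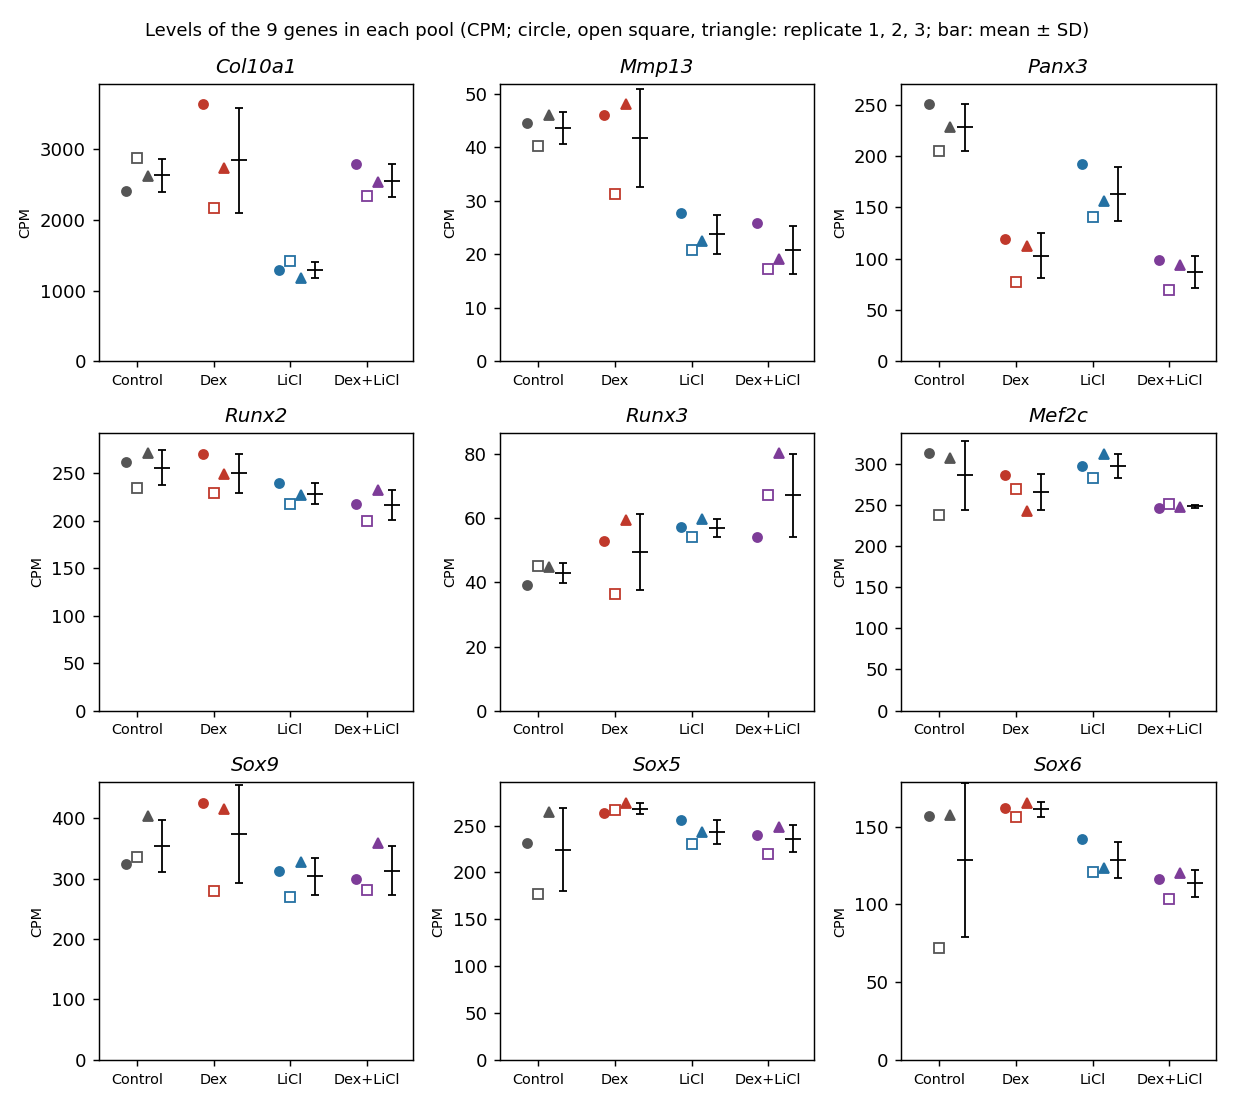
Levels of the 9 genes (CPM, linear axes from 0) in the 3 pools of each condition, with markers for replicates 1 to 3 and a bar for the mean ± SD. The LiCl pools of Col10a1 lie between 1180.4 and 1412 CPM, below all other pools, and control replicate 2 is low for Sox6 at 71.7 CPM.

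Col10a1 encodes the chain of collagen X, the short collagen laid down by hypertrophic chondrocytes. In control pools it was at 2406, 2875 and 2613 CPM, a mean of 2631 ± 235 (SD, n = 3). With LiCl it was at 1293, 1412 and 1180.4 CPM, a mean of 1295 ± 116 (SD, n = 3), and every LiCl pool lay below every control pool. The level fell by 1.02 on the log2 scale (SE 0.15), to 49.2% of control, with an adjusted p of 5.37e-04 by edgeR.

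With dexamethasone, Col10a1 was at 3634, 2163 and 2727 CPM, a mean of 2841 ± 742 (SD, n = 3). The pools overlapped those of control, with replicate 1 the highest and replicate 2 the lowest of the 6. The log2 difference from control was 0.11 (SE 0.15, 95% interval -0.21 to 0.43, adjusted p = 0.701 by edgeR), and 0.27 without replicate 2 (adjusted p = 0.275).

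With both drugs, Col10a1 was at 2795, 2336 and 2529 CPM, a mean of 2553 ± 231 (SD, n = 3). These values overlapped those of control, with replicate 2 below every control pool. Against LiCl alone the level with both drugs was 1.97-fold higher (log2 difference 0.98, SE 0.15, adjusted p = 5.84e-04 by edgeR), and the pools did not overlap. Against dexamethasone alone the log2 difference was -0.15 (SE 0.15, 95% interval -0.47 to 0.16, adjusted p = 0.597 by edgeR). Without dexamethasone replicate 2 that difference was -0.31 (SE 0.13, adjusted p = 0.160). The effect of LiCl on Col10a1 was estimated at -1.02 without and -0.15 with dexamethasone on the log2 scale, a difference of 0.87 (SE 0.21), or 0.71 (SE 0.18) without that library. This interaction did not pass in edgeR (adjusted p = 0.415), and over the alternative analyses its adjusted p ranged from 0.00141 to 0.881. It was called by DESeq2 (adjusted p = 0.0232) and without the count filter (adjusted p = 0.00141).

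The gene Nt5dc1 overlaps Col10a1 in the RefSeq annotation, and whether the counting used strand is not given in the sources used here. Nt5dc1 had mean levels of 22.2 to 26.1 CPM over the 4 conditions and was not called in any comparison.

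Mmp13 encodes collagenase 3, which cleaves collagen II in the last rows of hypertrophic cells and is also made by osteoblasts. In control pools it was at 44.6, 40.3 and 46.1 CPM, a mean of 43.7 ± 3.01 (SD, n = 3). With LiCl it was at 27.7, 20.9 and 22.6 CPM, a mean of 23.7 ± 3.57 (SD, n = 3), all below control. The level fell by 0.89 on the log2 scale (SE 0.16), to 54.0% of control (adjusted p = 0.00229 by edgeR).

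Mmp13 did not differ detectably from control with dexamethasone, where it was at 46.0, 31.2 and 48.1 CPM, a mean of 41.8 ± 9.20 (SD, n = 3). Replicate 2 was the low pool, as it was for Col10a1 and Panx3, and the log2 difference was -0.07 (SE 0.16, 95% interval -0.41 to 0.27, adjusted p = 0.821 by edgeR). Without replicate 2 it was 0.10 (adjusted p = 0.775). With both drugs Mmp13 was at 25.8, 17.2 and 19.2 CPM, a mean of 20.7 ± 4.48 (SD, n = 3), below all pools of dexamethasone alone. Adding LiCl to dexamethasone lowered it to 49.4% (log2 difference -1.02, SE 0.17, adjusted p = 0.00167 by edgeR), and against control it fell to 47.0% (log2 difference -1.09, SE 0.17, adjusted p = 2.14e-04). The levels under LiCl and under both drugs overlapped, with a log2 difference of -0.20 (SE 0.17, 95% interval -0.56 to 0.16, adjusted p = 0.671 by edgeR).

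Panx3 encodes pannexin 3, a channel protein of prehypertrophic and hypertrophic chondrocytes and of osteoblasts. In control pools it was at 251, 205 and 229 CPM, a mean of 228 ± 22.9 (SD, n = 3). With dexamethasone it was at 119, 77.6 and 113 CPM, a mean of 103 ± 22.3 (SD, n = 3), and no pool reached a control value. The level fell by 1.15 on the log2 scale (SE 0.16), to 45.0% of control (adjusted p = 1.66e-04 by edgeR).

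With LiCl alone, Panx3 was at 192, 141 and 156 CPM, a mean of 163 ± 26.4 (SD, n = 3). All 3 pools lay below control, and the log2 difference of -0.48 (SE 0.16) missed the threshold at an adjusted p of 0.0636 by edgeR. That difference passed under 8 of the 21 alternatives. With the replicate number as a block in the fit its adjusted p was 0.00107, and it also passed with DESeq2 (0.0292) and without dexamethasone replicate 2 (0.0229). With both drugs Panx3 was at 98.8, 69.5 and 94.0 CPM, a mean of 87.4 ± 15.7 (SD, n = 3). This was 38.3% of control (log2 difference -1.38, SE 0.16, adjusted p = 1.76e-05 by edgeR) and 53.6% of LiCl alone (log2 difference -0.90, SE 0.16, adjusted p = 0.00209). Against dexamethasone alone the pools overlapped, and the log2 difference was -0.23 (SE 0.16, adjusted p = 0.436), or -0.40 without dexamethasone replicate 2 (adjusted p = 0.116).

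Set against each other, LiCl alone and dexamethasone alone differed for all 3 of these genes. Col10a1 was lower with LiCl than with dexamethasone by 1.13 on the log2 scale (SE 0.15, adjusted p = 7.29e-05 by edgeR), and Mmp13 was lower by 0.82 (SE 0.16, adjusted p = 0.00258). Panx3 was higher with LiCl by 0.67 (SE 0.16, adjusted p = 0.00952), and in each case the pools of both conditions did not overlap.

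**Figure D2:**
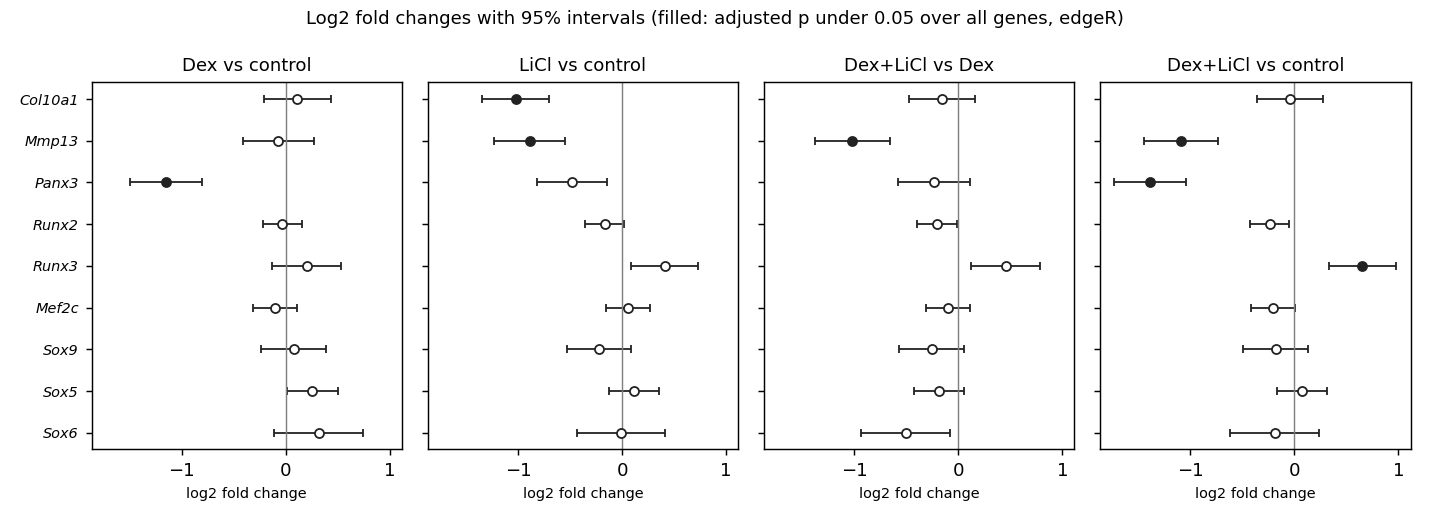
Log2 fold changes (horizontal axis) of the 9 genes in 4 comparisons, with 95% intervals from edgeR, filled where the adjusted p over all genes was under 0.05. Filled points are Panx3 with dexamethasone (-1.15), Col10a1 (-1.02) and Mmp13 (-0.89) with LiCl, Mmp13 with LiCl added to dexamethasone (-1.02), and Panx3 (-1.38), Mmp13 (-1.09) and Runx3 (0.65) with both drugs.

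Ratios to Col2a1, the collagen II gene of all cartilage stages, were taken within each library as a description of the same shifts. No change of Col2a1 itself was called, with log2 differences from control of -0.26 (SE 0.22) with dexamethasone, -0.06 (SE 0.22) with LiCl and -0.23 (SE 0.22) with both. The log2 ratio of Col10a1 to Col2a1 was -4.22 to -4.14 in control, -4.12 to -3.50 with dexamethasone, -5.35 to -4.83 with LiCl and -4.37 to -3.78 with both. The LiCl libraries therefore lay below all others on this scale too. The ratio of Mmp13 to Col2a1 was -10.38 to -9.90 in control, -10.03 to -9.62 with dexamethasone, -11.06 to -10.81 with LiCl and -11.42 to -10.54 with both, so that the conditions with LiCl again lay apart from those without. The ratio of Panx3 to Col2a1 was -8.03 to -7.41 in control, -8.72 to -8.31 with dexamethasone, -8.27 to -8.01 with LiCl and -9.12 to -8.60 with both, and here LiCl alone overlapped control.

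**Figure D3:**
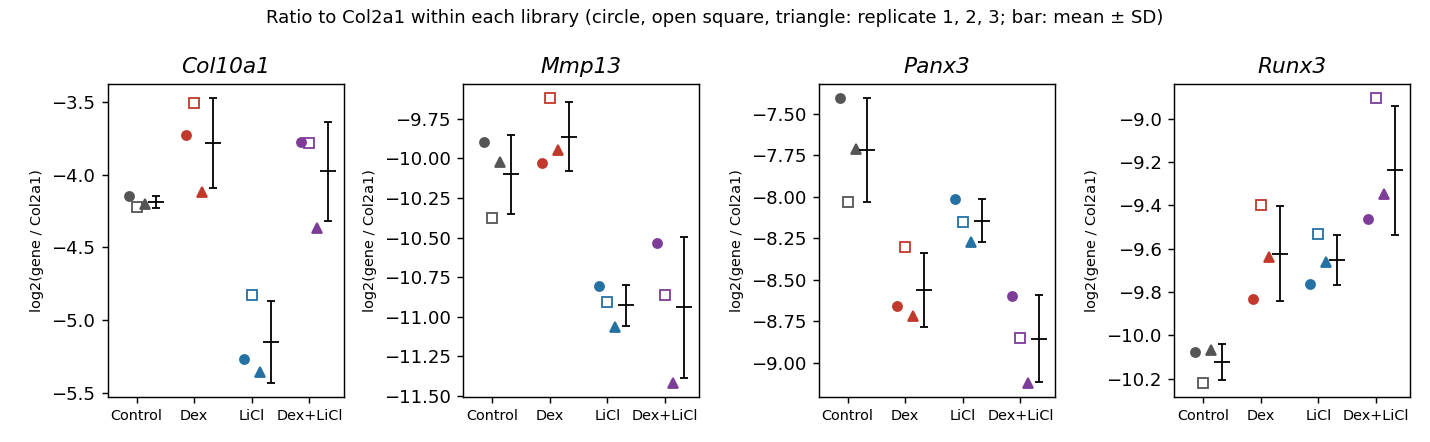
Log2 ratio of the count of Col10a1, Mmp13, Panx3 and Runx3 to that of Col2a1 within each library, with markers for replicates 1 to 3 and a bar for the mean ± SD. Axes do not start at 0. The mean ratio of Col10a1 is -5.15 with LiCl and between -4.19 and -3.78 in the other conditions.

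Runx2 encodes the Runt factor that drives chondrocyte hypertrophy and is required for osteoblasts. It was at 262, 235 and 271 CPM in control (mean 256 ± 18.6, SD, n = 3) and at 271, 229 and 249.6 CPM with dexamethasone (mean 249.7 ± 20.9). It was at 239.8, 218 and 227 CPM with LiCl (mean 228 ± 11.1) and at 218, 200.0 and 232 CPM with both drugs (mean 217 ± 16.1). The pools with dexamethasone or LiCl alone overlapped those of control, and the pools with both drugs did not.

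The log2 difference of Runx2 from control was -0.04 with dexamethasone (SE 0.09, 95% interval -0.22 to 0.15, and 0.02 without dexamethasone replicate 2 or -0.09 without control replicate 2) and -0.17 with LiCl (SE 0.09, 95% interval -0.35 to 0.02). With both drugs every pool lay below every control pool, at a log2 difference of -0.24 (SE 0.09) that missed the threshold by edgeR (adjusted p = 0.0646). It passed with the replicate block (adjusted p = 0.0170), with DESeq2 (0.0362), without control replicate 2 (0.0246) and without dexamethasone replicate 2 (0.0473). The span of Runx2 overlaps Supt3h in the RefSeq annotation. Supt3h had mean levels of 41.9 to 51.6 CPM and was higher than control with both drugs by 0.29 on the log2 scale (SE 0.09, adjusted p = 0.0346 by edgeR), a difference of opposite sign to that of Runx2.

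Runx3, the paralog that acts beside Runx2 in chondrocyte maturation, was the only one of the 6 transcription factors with a call. It was at 39.3, 45.0 and 44.7 CPM in control (mean 43.0 ± 3.19, SD, n = 3) and at 54.2, 67.2 and 80.2 CPM with both drugs (mean 67.2 ± 13.0). All pools with both drugs lay above all control pools. The level was 1.57-fold higher (log2 difference 0.65, SE 0.15, adjusted p = 0.00609 by edgeR). This call was lost with a fold minimum of 2, which the study required.

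Runx3 with a single drug lay between these levels. With dexamethasone it was at 52.8, 36.4 and 59.4 CPM (mean 49.5 ± 11.8, SD, n = 3), overlapping control through replicate 2, at a log2 difference of 0.20 (SE 0.16, adjusted p = 0.471 by edgeR), or 0.38 without that pool (adjusted p = 0.108). With LiCl it was at 57.2, 54.2 and 59.7 CPM (mean 57.0 ± 2.74), all above control. That log2 difference of 0.41 (SE 0.15) had an adjusted p of 0.101 by edgeR, of 0.0402 with the replicate block, 0.0146 with no count filter and 0.0319 without dexamethasone replicate 2. Adding LiCl to dexamethasone gave a log2 difference of 0.45 (SE 0.16) with an adjusted p of 0.0859 by edgeR, 0.0346 with the replicate block, 0.00579 with no count filter, 0.0485 without dexamethasone replicate 3 and 0.0488 without dexamethasone + LiCl replicate 1. Without dexamethasone replicate 2, the low pool, this difference was 0.28 (adjusted p = 0.228).

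Runx3 is also a gene of lymphocytes. Of the lymphocyte genes among the leukocyte markers, Cd3e had no count in any of the 12 libraries, and Cd3g and Nkg7 had none in 11 of them. Levels were also summed over the 11 macrophage and leukocyte markers. The sums were 81.3 to 118 CPM in control and 157 to 180.1 with dexamethasone. With LiCl they were 70.3 to 73.3 and with both drugs 122 to 145. The markers did not move together. With dexamethasone 3 of the 8 tested were higher and 1 lower than control, beside 5.45% and 5.49% of all genes. The mean of C1qb was 9.77 CPM in control and 42.9 with dexamethasone, and that of Cd68 was 24.4 and 17.2. With both drugs against control 3 of the 8 tested markers were higher and 5 lower, beside 10.8% and 11.8% of all genes. The part of leukocytes in the Runx3 result was not tested.

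Mef2c encodes a factor that switches on Col10a1 and Runx2 in mice and is held inactive by class IIa histone deacetylases. It was at 313, 238 and 308 CPM in control (mean 286 ± 41.7, SD, n = 3) and at 286, 269 and 242 CPM with dexamethasone (mean 266 ± 21.9). It was at 298, 283 and 312 CPM with LiCl (mean 298 ± 14.5) and at 246, 251 and 248 CPM with both drugs (mean 248 ± 2.17). The 3 pools with both drugs were close together, below all LiCl pools and within the range of control.

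No Mef2c difference was called. The log2 difference from control was -0.11 with dexamethasone (95% interval -0.32 to 0.11), 0.06 with LiCl (-0.15 to 0.27) and -0.21 with both drugs (-0.42 to 0.01). Without control replicate 2, the lowest control pool, the difference was -0.22 with dexamethasone (adjusted p = 0.108 by edgeR) and -0.06 with LiCl (adjusted p = 0.724), and with both drugs it was -0.32 and passed (adjusted p = 0.00924 by edgeR). Both drugs against LiCl gave -0.26 (SE 0.10, adjusted p = 0.163 by edgeR). The adjusted p was 0.0329 in the fit without that control pool and 0.0192 in a fit of these groups alone. Mef2c is also expressed in endothelial and muscle cells. Summed endothelial markers (11 genes) were 231 to 264 CPM in control, 95.9 to 103 with dexamethasone, 213 to 241 with LiCl and 110.0 to 121 with both, and summed muscle markers (11 genes) were 43.9 to 46.0, 67.6 to 105, 73.9 to 80.2 and 175 to 220.4 CPM in the same order. These sums moved in opposite directions with both drugs, and their part in the Mef2c levels was not tested.

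Sox9, the master factor of the chondrocyte lineage, was at 325, 335 and 404 CPM in control (mean 355 ± 42.9, SD, n = 3) and at 426, 280.1 and 416 CPM with dexamethasone (mean 374 ± 81.4). It was at 313, 270.3 and 328 CPM with LiCl (mean 304 ± 30.1) and at 299.6, 281 and 359 CPM with both drugs (mean 313 ± 40.8). All 4 conditions overlapped, and dexamethasone replicate 2 was again the low pool of its condition.

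The log2 difference of Sox9 from control was 0.07 with dexamethasone (95% interval -0.24 to 0.39, and 0.24 without dexamethasone replicate 2 or 0.04 without control replicate 2), -0.22 with LiCl (-0.53 to 0.09) and -0.18 with both (-0.49 to 0.13). Adding LiCl to dexamethasone gave -0.25 (SE 0.15, adjusted p = 0.328 by edgeR), and without dexamethasone replicate 2 this was -0.42 and passed (adjusted p = 0.0437). LiCl against dexamethasone gave -0.30 (SE 0.15, adjusted p = 0.195), and -0.46 without that pool (adjusted p = 0.0168).

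Sox5 and Sox6 encode the closely related partners that bind beside Sox9 at cartilage genes. Sox5 was at 232, 177 and 265 CPM in control (mean 224 ± 44.4, SD, n = 3) and at 263, 267 and 274 CPM with dexamethasone (mean 268 ± 5.63). It was at 256, 229.9 and 243 CPM with LiCl (mean 243 ± 13.1) and at 240.3, 220.1 and 248 CPM with both (mean 236 ± 14.5). Control replicate 2 was the lowest of all 12 pools, and the control SD was larger than that of any other condition.

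Sox6 showed the same low control pool more strongly. It was at 157, 71.7 and 158 CPM in control (mean 129 ± 49.5, SD, n = 3) and at 162, 156 and 165 CPM with dexamethasone (mean 161 ± 4.76). It was at 142, 121 and 123 CPM with LiCl (mean 129 ± 11.5) and at 117, 104 and 120.3 CPM with both drugs (mean 113 ± 8.79). All dexamethasone pools lay above all pools with LiCl or with both drugs.

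With all libraries, the Sox6 log2 difference from control was 0.31 with dexamethasone (SE 0.20), -0.01 with LiCl (SE 0.20) and -0.19 with both (SE 0.20), and none passed. Without control replicate 2 the difference was 0.03 with dexamethasone (adjusted p = 0.883 by edgeR). With LiCl it was -0.29 (adjusted p = 0.0458) and with both drugs -0.47 (adjusted p = 0.00103). LiCl added to dexamethasone, a comparison that does not contain the pool, gave -0.51 (SE 0.20, adjusted p = 0.143), or an adjusted p of 8.12e-04 once the pool no longer entered the shared estimate of spread. With every library kept, it also passed with no count filter (adjusted p = 0.00562), and it passed in a fit of these groups alone (0.00489). LiCl against dexamethasone gave -0.32 (SE 0.20, adjusted p = 0.314 by edgeR). The adjusted p was 0.00775 without control replicate 2 and 0.0162 in a fit of these groups alone. For Sox5 the log2 difference with dexamethasone was 0.26 (SE 0.11, adjusted p = 0.182), 0.11 without control replicate 2 (adjusted p = 0.510) and 0.39 without control replicate 3 (adjusted p = 0.0344).

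Counts of calls among the 9 genes are read against all genes tested. With dexamethasone 0 of the 9 were higher and 1 lower, where 5.45% of all genes were called higher and 5.49% lower. With LiCl 0 were higher and 2 lower, against 4.71% and 5.9% of all genes. With LiCl added to dexamethasone 0 were higher and 1 lower, against 3.82% and 4.78%.

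With both drugs against control 1 was higher and 2 lower, against 10.8% and 11.8% of all genes. Both drugs against LiCl gave 1 higher and 1 lower (3.79% and 3.09% of all genes), and LiCl against dexamethasone 1 higher and 2 lower (7.22% and 8.95%). The interaction gave 0 and 0 by edgeR (0% and 0.00794% of all genes), and 1 of the 9, Col10a1, had an unadjusted p under 0.05 and was called by DESeq2. Counts of 0 to 2 in each direction among 9 genes are not a result about the group. The median log2 difference of the 9 was 0.07 with dexamethasone, -0.17 with LiCl and -0.19 with both drugs, against 0.00, 0.00 and 0.01 for all genes. These comparisons share their control pools.

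Other genes of the hypertrophic and prehypertrophic zone were taken as a list of 24, of which 23 were tested. Calls in this list and in those below are to be read against the shares of all genes called in each comparison, given above. With dexamethasone 4 rose and 5 fell. Those that rose included Spp1, the gene of the matrix protein osteopontin (log2 difference 1.24, SE 0.13, adjusted p = 1.02e-05 by edgeR), and Foxa2, a forkhead factor that promotes hypertrophy in mice (1.06, SE 0.12, adjusted p = 2.30e-05). Those that fell included Phospho1, a phosphatase of matrix vesicles (-0.73, SE 0.14, adjusted p = 0.00233), Sp7, the osteoblast factor osterix (-0.56, SE 0.12, adjusted p = 0.00480), and Dlx6, a homeobox factor (-0.87, SE 0.18, adjusted p = 0.00395). Panx3 therefore fell beside some genes of its zone while others rose.

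With LiCl 1 of the 23 rose and 5 fell, among them Dlx6 (-0.88, SE 0.17, adjusted p = 0.00338 by edgeR), Spp1 (-0.63, SE 0.13, adjusted p = 0.00660) and Loxl4, a lysyl oxidase of matrix (-0.66, SE 0.17, adjusted p = 0.0192). Spp1, like Col10a1, was lower with LiCl than with both drugs, by 1.53 on the log2 scale (adjusted p = 1.62e-06 by edgeR). Unlike Col10a1, Spp1 was also called higher with dexamethasone alone, as given above. With both drugs 4 rose and 8 fell against control, including Dlx6 (-1.35) and Loxl4 (-1.05), and with LiCl added to dexamethasone 1 rose (Phospho1, 0.57, adjusted p = 0.0211) and 3 fell. Ihh, the hedgehog signal of prehypertrophic cells, was not called against control in any condition (log2 differences of -0.40 with dexamethasone, 0.08 with LiCl and 0.09 with both). Pth1r, the receptor through which PTHrP delays hypertrophy, was not called either (0.01, -0.32 and -0.34).

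**Figure D4:**
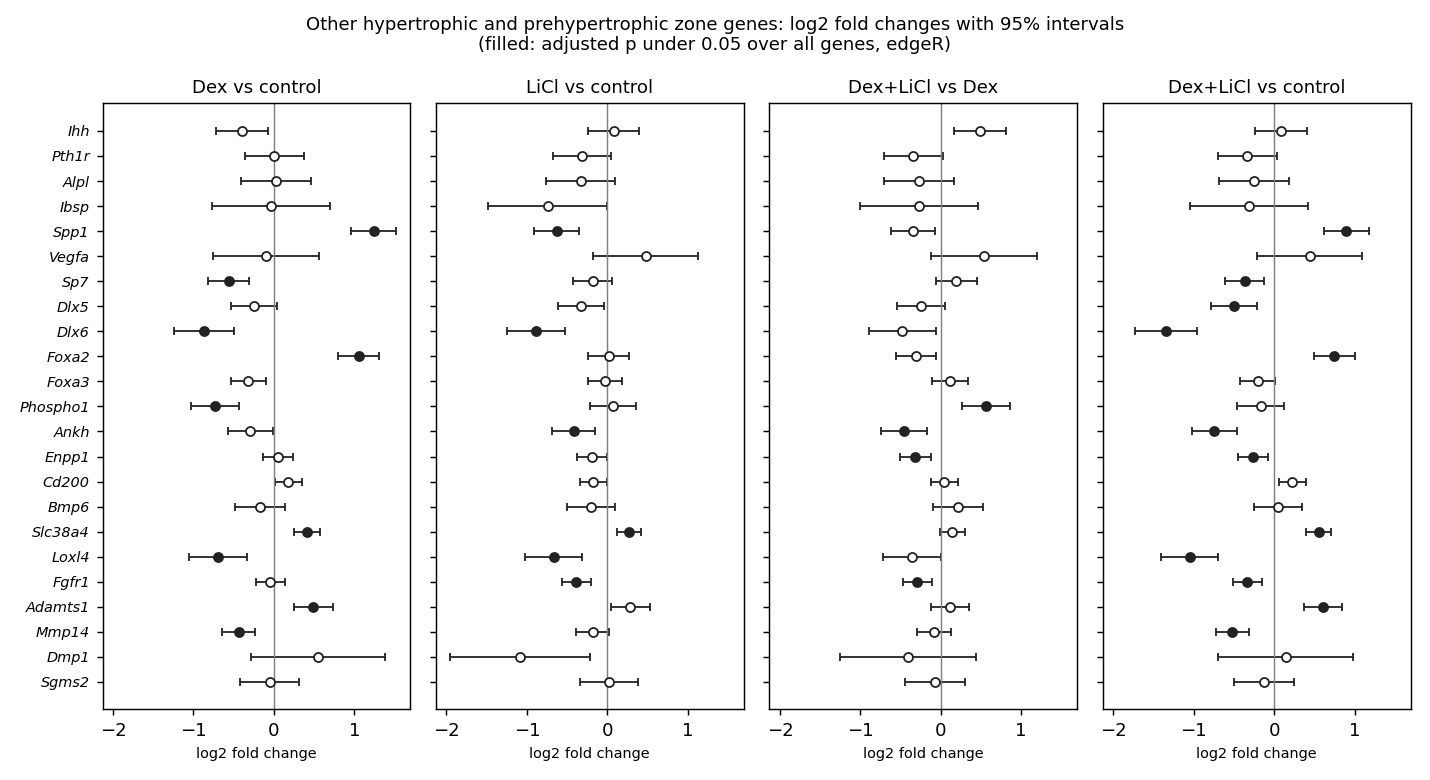
Log2 fold changes (horizontal axis) of 23 other hypertrophic and prehypertrophic zone genes in 4 comparisons, with 95% intervals from edgeR, filled where the adjusted p over all genes was under 0.05. With dexamethasone filled points lie on both sides of 0 (4 above, 5 below), and with LiCl mostly below (1 above, 5 below).

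Matrix and signaling genes of resting and proliferating cartilage that the Sox trio binds or drives were a list of 23, all tested. With dexamethasone 2 rose, the secreted factor Cytl1 (1.76, SE 0.28, adjusted p = 5.16e-04 by edgeR) and Hapln1, the link protein of aggrecan (0.45, SE 0.10, adjusted p = 0.00522), and Matn4, a matrilin, fell (-0.71, SE 0.12, adjusted p = 6.83e-04). With LiCl 1 rose, Fgfr3, a receptor that restrains chondrocyte proliferation (0.43, SE 0.10, adjusted p = 0.00894), and 6 fell. Those that fell included the small proteoglycan Epyc (-0.76, SE 0.08, adjusted p = 3.08e-05), Matn4 (-0.85, SE 0.12, adjusted p = 2.95e-04), the secreted cartilage protein Ucma (-0.73, SE 0.12, adjusted p = 0.00144) and Cytl1 (-1.81, SE 0.31, adjusted p = 0.00154). Addition of LiCl to dexamethasone gave 1 higher and 5 lower, and both drugs against control 3 higher and 6 lower. Of the 23, 6 were thus lower with LiCl and 5 with LiCl added to dexamethasone, beside 5.9% and 4.78% of all genes called lower. In these comparisons 16 and 17 of the 23 were not called.

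Of 24 tested partners and regulators of Runx2, 1 rose and 5 fell with dexamethasone. Those that fell included Bmp2, a growth factor upstream of Runx2 (-0.64, SE 0.09, adjusted p = 1.66e-04 by edgeR), Dlx3 (-1.34, SE 0.24, adjusted p = 0.00171), Twist1, which restrains Runx2 (-0.55, SE 0.11, adjusted p = 0.00346) and Dlx6 (given above). With LiCl 1 rose and 2 fell, and with LiCl added to dexamethasone 2 rose and 1 fell, the last being Runx1 (-0.67, SE 0.17, adjusted p = 0.0254). With both drugs 2 rose and 7 fell against control. The third Runt paralog thus fell where Runx3 rose: with both drugs Runx1 was lower than control by 0.91 on the log2 scale (SE 0.17, adjusted p = 8.99e-04). Cbfb, the subunit that all Runt factors bind, was not called (-0.17 with both drugs, adjusted p = 0.0885).

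Around Mef2c, 18 of 19 genes of the Mef2 family, the class IIa histone deacetylases and the PTHrP and SIK axis were tested. With dexamethasone 1 rose, the kinase gene Sik1 (0.95, SE 0.15, adjusted p = 6.02e-04 by edgeR), whose product phosphorylates class IIa deacetylases. With LiCl 1 rose and 3 fell, including Mef2a (-0.31, SE 0.08, adjusted p = 0.0164) and Hdac7 (-0.34, SE 0.09, adjusted p = 0.0222). LiCl added to dexamethasone gave 1 higher and 1 lower, and both drugs against control 3 higher and 3 lower. Hdac4, the deacetylase that restrains hypertrophy in mice, was not called against control (-0.15 with dexamethasone, 0.22 with LiCl and -0.12 with both).

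Of 16 other Sox genes 7 were tested, and 3 of them fell with dexamethasone. These were Sox4 (-0.97, SE 0.09, adjusted p = 1.47e-06 by edgeR) and the endothelial factors Sox7 (-3.58, SE 0.35, adjusted p = 4.64e-06) and Sox18 (-1.33, SE 0.20, adjusted p = 3.62e-04), the last 2 beside the lower sums of endothelial markers given above. None was called with LiCl. The addition of LiCl to dexamethasone gave 1 higher and 0 lower, and both drugs against control 0 higher and 4 lower.

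Of 15 tested relatives and inhibitors of Mmp13 and Panx3, 1 rose and 6 fell with dexamethasone (5.45% and 5.49% of all genes). With LiCl 1 rose and 6 fell (4.71% and 5.9% of all genes). With LiCl the stromelysin gene Mmp3 fell most clearly (-2.31, SE 0.17, adjusted p = 6.62e-07 by edgeR), followed by Mmp11 (-1.09, SE 0.13, adjusted p = 7.48e-05), while the gelatinase Mmp2 rose (0.59, SE 0.10, adjusted p = 0.00147). With dexamethasone Mmp9, the gelatinase of osteoclasts and late hypertrophic cartilage, fell by 4.25 (SE 0.36, adjusted p = 8.33e-07), and the inhibitor Timp4 rose by 2.28 (SE 0.14, adjusted p = 2.53e-08). LiCl added to dexamethasone gave 1 higher and 4 lower, and both drugs against control 1 higher and 8 lower. The pannexin genes Panx1 (-0.40, SE 0.27) and Panx2 (-0.03, SE 0.20) were not called with dexamethasone, where Panx3 fell.

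The 3 genes closest to each of the 9 over the 12 libraries were found by the smallest root mean square difference of centred log2 CPM. For Col10a1 these were St6galnac2 (0.23), Hpcal1 (0.23) and Hhat (0.24), against an SD of Col10a1 itself of 0.51 on the same scale. For Mmp13 they were Sema3e (0.14), Rspo3 (0.15) and Pou3f3 (0.15), against 0.54. For Panx3 they included Cdh2 (0.18) and Spon1 (0.18), against 0.62. Among these 3 genes distances were larger: Col10a1 lay 0.50 from Mmp13 and 0.83 from Panx3, and Mmp13 lay 0.55 from Panx3. Runx2 and Sox9 (0.139) were the closest pair among the 9, before Runx2 and Mef2c (0.145). On the same scale the SD was 0.13 for Runx2 itself and 0.23 for Sox9. These are descriptions over libraries that share conditions, and depth differed between the conditions. Median total counts were 20069564 in control, 10057103 with dexamethasone, 18651019 with LiCl and 10941818 with both drugs.

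Markers of the cell types in the bones were summed in each library. Chondrocyte markers (5 genes) summed to 65080 to 77416 CPM in control, 48850 to 76682 with dexamethasone, 62548 to 74089 with LiCl and 55695 to 79945 with both, overlapping throughout, and dexamethasone replicate 2 had the lowest sum of all. Summed osteoblast markers (10 genes) were 14810 to 18820 CPM in control, 9364 to 15165 with dexamethasone, 11415 to 13010 with LiCl and 9146 to 12139 with both. They were thus lower with LiCl and with both drugs than in any control pool. Most of each sum was Col1a1, at 17219, 17670 and 13657 CPM in the control pools, so the sums mainly describe that gene. Of the 9 tested markers 2, 1 and 4 were called lower with dexamethasone, LiCl and both. Osteoclast markers (7 genes, Dcstamp at 0 in all 12 libraries) summed to 162 to 181 CPM in control, 85.9 to 101 with dexamethasone, 95.1 to 128 with LiCl and 75.2 to 89.5 with both. Perichondrial fibroblast markers (9 genes) summed to 7485 to 9291, 8581 to 9131, 7711 to 7834 and 8295 to 8921 CPM. Mmp13 and Panx3 are expressed in osteoblasts as well as in hypertrophic cartilage, and the part of osteoblasts in their falls was not tested.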

How the data were processed

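Poly-A RNA of cultured fetal rat metatarsals was sequenced with a strand-specific kit, giving 12 libraries, 3 in each of 4 conditions. The authors deposited unnormalized read counts, 1 table per library with 1 row per symbol. They used Subread for alignment, Picard against duplicates and HTSeq-count for counting, and merged technical replicates. Versions and the strand setting are not given in the sources used here. The build the submitters list is human although the bones are rat, so coordinates are printed for RefSeq (GRCr8) promoter windows alone. A joint table of the same counts was not used.

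A gene was tested if 2 or more libraries held 60 or more counts of it (12602 of 23569 with any count). The model was edgeR 4.0.16 (quasi-likelihood F-test after TMM scaling, run in R 4.3.3) over all libraries, with condition alone. SE is the absolute log2 difference divided by the square root of F. Named are the 9 genes, from each gene or marker list the 4 genes or fewer with the lowest adjusted p in any 1 of the 7 comparisons (a gene ranked in 1 list or comparison may be given in others), and the 3 nearest profiles of Col10a1, Mmp13 and Panx3, of which 1 is not reported here. Cbfb, Panx1, Panx2 and the overlapping genes Nt5dc1 and Supt3h were named for their roles or positions after their values were seen. Cd3e, Cd3g, Nkg7 and Dcstamp did not pass the count filter, so they had no adjusted p and were named outside this ranking. The 9 genes and the lists were chosen with earlier results of these data known. Symbols missing from the tables were matched through RefSeq synonyms. The tests are two-sided and were tested on simulated data. Figures were made in Python 3.11.15 (matplotlib 3.10.9, pandas 2.3.3).

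The labels do not define the replicate numbers. The study's methods describe 3 consecutive experiments for RNA, and a legend speaks of 3 rats. Deviations from the condition means correlated between same-numbered libraries at 0.13 to 0.50, except for control with dexamethasone (0.03 to 0.17). Only same-numbered libraries were compared in this way, so the values cannot show that the numbers pair the libraries. That they do was assumed, but the main fit held condition alone and its p-values are unpaired. The fit with a replicate block was an alternative and is given beside each call it changed.

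Alternatives were RLE scaling, DESeq2 1.42.0, filterByExpr (15274 genes), no filter (23569 genes), thinning to the lowest library total (11382 genes), the block, a fit of the compared groups alone, a fold minimum of 2 and leaving out each library. Leaving out control replicate 2 and dexamethasone replicate 2 together was added after the levels had been seen.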

Additional observations from a re-analysis of the deposited data

How the results depend on the processing

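Of 1314 log2 differences recomputed for the 9 genes over 63 gene and comparison pairs, 1262 kept their side of the threshold. Another 46 came to pass it, 6 no longer passed it and 0 called values changed sign. Differences that were not called could change sign, such as Mmp13 with dexamethasone, at -0.07 in the main fit and 0.10 without dexamethasone replicate 2. The 6 losses came from a fold minimum of 2, and Panx3 with dexamethasone and with both drugs, Col10a1 with LiCl (against control and against dexamethasone), and Mmp13 with both drugs (against dexamethasone and against control) passed under every alternative run. Counts of called genes among the 9 moved as follows. LiCl against control (2) gave 4 with no filter, 4 with the replicate block, 4 with only the groups compared, 1 with the fold minimum and 5 without control replicate 2 and dexamethasone replicate 2. LiCl added to dexamethasone (1) gave 3 with no filter, 2 with the block, 2 with only the groups compared and 4 without those libraries. Both drugs against control (3) gave 6 without them and lost Runx3 with the fold minimum. Both drugs against LiCl (2) gave 0 with the fold minimum, and LiCl against dexamethasone (3) gave 1 with the fold minimum and 5 without those libraries. The interaction (0) gave 1 with DESeq2 and 1 with no filter, with 25 and 37 of all genes called there against 1 in edgeR. With each library left out in turn the counts were 1 to 2 with dexamethasone (2 without control replicate 3), 2 to 4 with LiCl (4 without dexamethasone replicate 2), 1 to 2 with LiCl added to dexamethasone (2 without control replicate 2, dexamethasone replicate 2, dexamethasone replicate 3 or dexamethasone + LiCl replicate 1), 3 to 6 with both drugs (6 without control replicate 2), 2 to 3 for both drugs against LiCl, 3 to 4 for LiCl against dexamethasone, and 0 to 0 for the interaction. The causes were not tested. The replicate block changed no other call among the 9 than those given beside them. Under RLE scaling the log2 median over all genes shifted by 0.0022 or less. With 3 pools a condition, the intervals printed with each gene give the precision.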
